A study of Rattus norvegicus with 8 samples.

Results

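The TGF-beta ligands Tgfb1 (ENSRNOG00000020652), Tgfb2 (ENSRNOG00000002418) and Tgfb3 (ENSRNOG00000009867), the receptors Tgfbr1 (ENSRNOG00000007036) and Tgfbr2 (ENSRNOG00000013265) and the TGF-beta-induced gene Tgfbi (ENSRNOG00000012216) were followed through single-cell RNA sequencing of the contused rat spinal cord. They were taken by symbol and are 6 of the 32623 genes counted. All rats were female Wistar rats of 8 weeks whose cord was exposed by laminectomy at T9. The sham group had the laminectomy alone, while mild, moderate and severe injuries came from a 10 g weight released 12.5, 25 and 50 mm above the cord. After 7 days about 10 mm of cord was taken and dissociated, so the levels describe the cells that came through dissociation at that time. Each of the 4 groups has 2 libraries, called replicates 1 and 2. The study's text counts as many cords as there are libraries, so each library was taken as a cord of its own, although the sample labels do not state it, and the p-values measure the spread between these libraries.

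TGF-beta is made as a precursor that is cut by furin, stays bound to its own propeptide in a latent complex, and is anchored in the matrix or at the cell surface until integrins, thrombospondin or proteases release it. The freed ligand binds the type II receptor (Tgfbr2), which recruits and phosphorylates the type I receptor (Tgfbr1), and Smad2 and Smad3 then enter the nucleus with Smad4. In the injured cord the pathway is known for its part in scar formation, in glial reactivity and in the maintenance of microglia, and Tgfbi encodes a secreted matrix protein that takes its name from its induction by TGF-beta.

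Of 68658 deposited cells, 55451 passed quality control, with a median of 2739 to 10818.5 UMIs (unique molecular identifiers, one for each captured RNA molecule) per cell and library. They formed 24 clusters, named from marker genes except for 4 that stayed unnamed, and the 6 genes and the other pathway genes were kept out of the genes that formed the clusters. Any pair of libraries shared between 5 and 40 cell barcodes, at most 0.452% of the smaller library. The cluster named astrocytes was led by Gfap but its leading genes also held Stmn2, a gene of neurons, so its values are those of a mixed cluster. When its 950 cells were assigned singly by markers, 101 were astrocytes and 442 stayed unassigned. Another 113 were infiltrating macrophages and 163 general macrophages or microglia. Of the 1229 cells of the dendritic clusters, 527 were assigned as dendritic cells and 172 stayed unassigned. Another 317 were general macrophages or microglia, 152 infiltrating and 52 border macrophages. Of the 11881 cells of the microglia clusters, 6702 were assigned as microglia and 2696 as general macrophages or microglia. Another 1617 were infiltrating and 865 border macrophages. Levels of these types are those of whole clusters. The sham libraries stood apart from each other. Sham replicate 1 was mostly neutrophils, with 4822 of all 4938 cells in that cluster, and the summed level of the 12 neutrophil markers in its other cell types was 4567 to 10059.7 CPM, beside 0 to 755 CPM in the other libraries. An unnamed cluster of 5621 cells, 10.1% of all, held 689 cells assigned singly as neutrophils and 3287 as general macrophages or microglia. The neutrophil values thus cover 1 named cluster and not every neutrophil, and the paper annotated more cells as neutrophils. Sham replicate 2 had few cells outside the microglia, with 91 infiltrating macrophages, 39 oligodendrocytes and 26 fibroblasts. Levels are given in CPM (the UMIs of a gene as a share of all UMIs of a cell type in a library, on the usual counts-per-million scale), for libraries with at least 20 cells of that type. Levels of different genes are not compared with each other.

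Tgfb1, the most studied ligand, was highest among the named types in dendritic cells, microglia and infiltrating macrophages. Its mean level was 470.4 ± 118 CPM in dendritic cells (SD, n = 6 libraries), 357 ± 86.0 CPM in microglia (n = 8) and 267 ± 75.1 CPM in infiltrating macrophages (n = 8). Below these followed T cells/NK cells with 262 ± 149 CPM (n = 7), endothelial cells with 144 ± 64.8 CPM (n = 5) and fibroblasts with 143 ± 69.1 CPM (n = 8). The oligodendrocyte precursors held 18.3 ± 9.12 CPM and the oligodendrocytes 7.15 ± 4.03 CPM (n = 8 each). Neutrophils, also myeloid cells, held 93.7 ± 58.2 CPM (n = 3). Over all libraries together they held 30.6 CPM, since nearly all of these cells came from sham replicate 1. Of the unnamed clusters, that of 1997 cells held 305 ± 116 CPM (n = 8), above the mean of infiltrating macrophages. That of 577 cells held 226 ± 127 CPM (n = 4), and that of 5621 cells 72.4 ± 42.4 CPM (n = 7). Erythrocytes, which should lack this transcript, held 0 to 3.21 CPM in 3 libraries. As a share of their own UMIs this does not measure the free RNA in other cell types. Dendritic cells lay above microglia in 5 of 6 libraries, and microglia above infiltrating macrophages in 8 of 8. The steps between infiltrating macrophages, T cells/NK cells, endothelial cells and fibroblasts were smaller than their SD between libraries, so neighbours in this order could not be told apart. Infiltrating macrophages lay above fibroblasts in 7 of 8 libraries, by 0.99 in log2(CPM + 1) (SD 0.58), a pair chosen after seeing the data and given with no test.

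**Figure D1:**
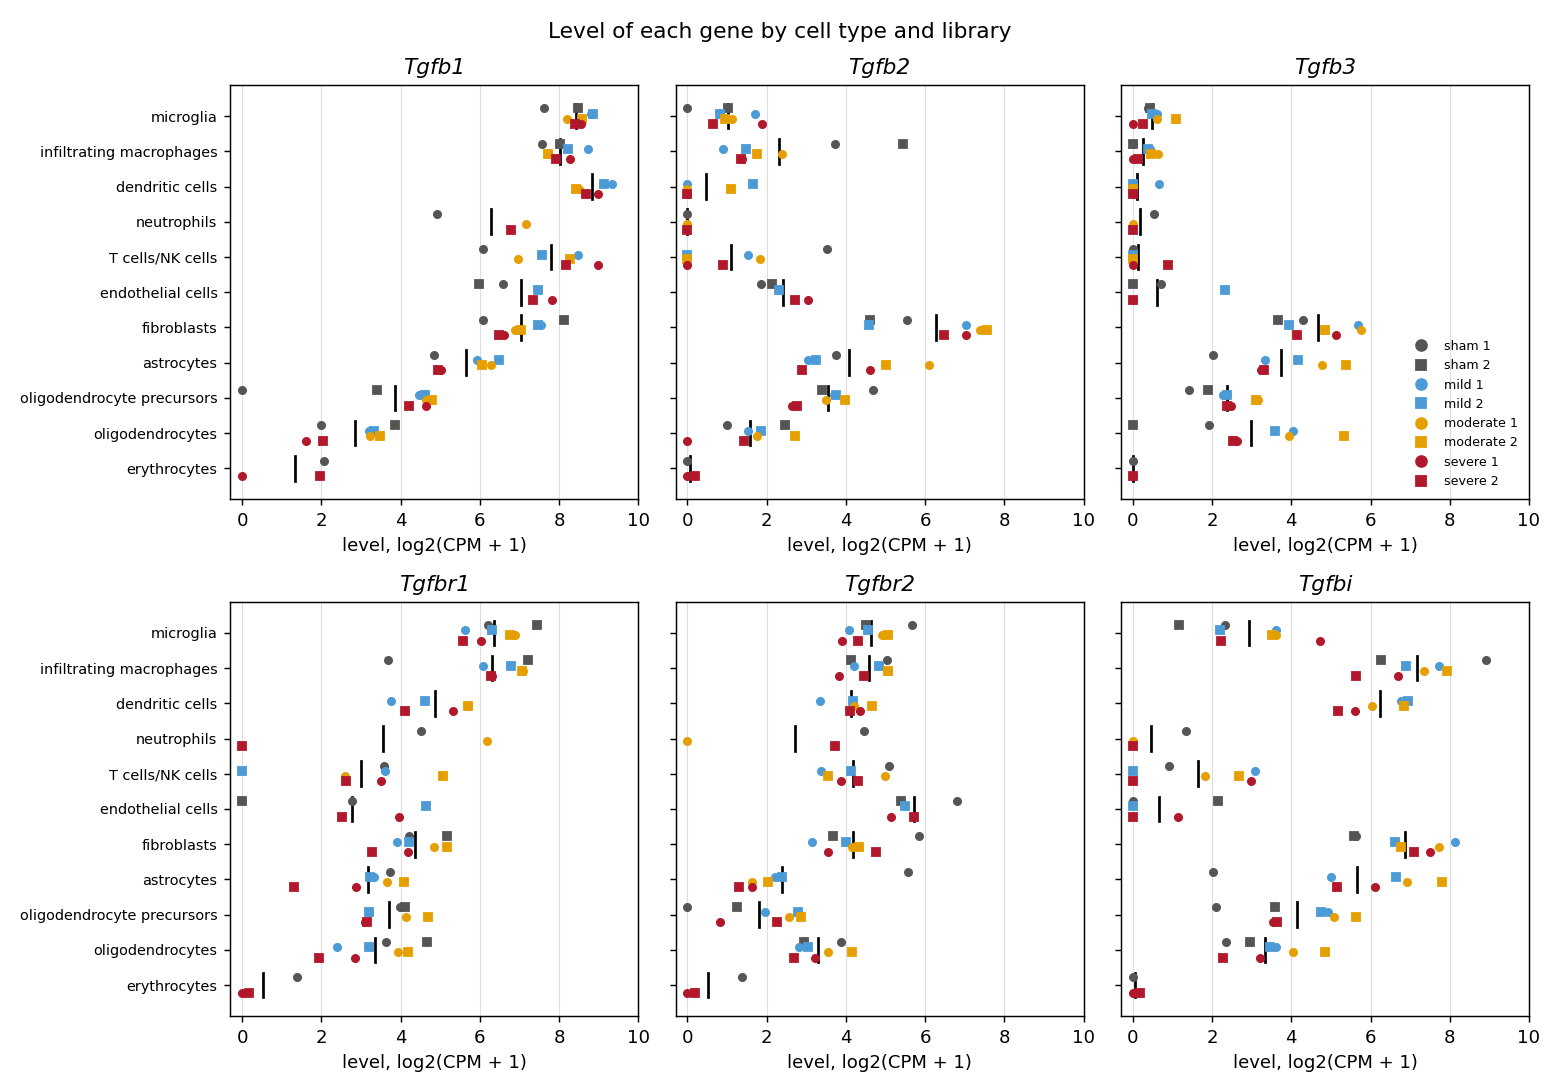
Level of each gene, as log2(CPM + 1), in 11 cell types, with 1 point per library (20 or more cells needed), coloured by injury group, and a black bar at the mean. Tgfb1 and both receptors lie highest in immune or endothelial cells, Tgfb2 and Tgfb3 in fibroblasts, and Tgfbi in infiltrating macrophages and fibroblasts.

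Tgfb2, the second ligand, was highest in fibroblasts. In fibroblasts its level was 45.8 and 23.3 CPM in the sham replicates, 129.7 and 23.0 CPM in the mild, 165 and 188 CPM in the moderate, and 129 and 87.8 CPM in the severe replicates. Both moderate and both severe libraries lay above both sham libraries. The value of sham replicate 2 rests on 2 UMIs in 26 cells, so its order against mild replicate 2 is not shown. Astrocytes followed with 22.3 ± 21.96 CPM (SD, n = 7) and oligodendrocyte precursors with 11.9 ± 6.19 CPM (n = 8). Fibroblasts exceeded astrocytes in 7 of 7 libraries, by 2.42 in log2(CPM + 1) (SD 1.051). Microglia held 1.17 ± 0.873 CPM, and 0 UMIs of Tgfb2 were found in the 4938 neutrophils. The 2 fibroblast clusters held 183 CPM of Tgfb2 in the cluster numbered 11 and 17.97 CPM in the cluster numbered 16, over all libraries together. Within each of the 6 libraries with at least 20 cells of both, cluster 11 was the higher, with 78.0 to 748 CPM beside 5.34 to 41.1 CPM, a description with no test.

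Tgfb3, the third ligand, was shared between fibroblasts and glia. In fibroblasts it was 18.6 and 11.7 CPM in the sham replicates, 50.7 and 14.3 CPM in the mild, 52.9 and 28.1 CPM in the moderate, and 34.1 and 16.7 CPM in the severe replicates. The groups overlapped, since mild replicate 2 and severe replicate 2 fell below sham replicate 1. The value of sham replicate 2 rests on 1 UMI in 26 cells. Astrocytes held 16.2 ± 13.3 CPM (SD, n = 7), oligodendrocytes 11.5 ± 12.4 CPM and oligodendrocyte precursors 4.61 ± 2.21 CPM (n = 8 each). Neighbours in this order differed by less than their SD. Microglia and infiltrating macrophages were near 0, with means of 0.433 and 0.213 CPM.

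Tgfbr1, the type I receptor, was highest in infiltrating macrophages and microglia. In microglia its level was 73.4 and 172 CPM in the sham replicates, 48.2 and 77.9 CPM in the mild, 118 and 108 CPM in the moderate, and 64.8 and 46.5 CPM in the severe replicates. In infiltrating macrophages the order of libraries was 11.9 and 147 CPM in sham, 67.3 and 109 CPM in mild, 135 and 132 CPM in moderate, and 78.4 and 77.4 CPM in severe replicates. The sham libraries held the highest and the lowest value of the infiltrating macrophages, and the injured libraries lay between them. The means of both types, 88.5 ± 42.2 and 94.8 ± 45.0 CPM (SD, n = 8), did not differ beyond their spread. Microglia exceeded dendritic cells in 6 of 6 libraries, by 1.33 in log2(CPM + 1) (SD 0.42). Fibroblasts, with 21.6 ± 9.80 CPM, exceeded oligodendrocyte precursors in 8 of 8.

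Tgfbr2, the ligand-binding type II receptor, was highest among the named types in endothelial cells, with 111 and 41.1 CPM in the sham replicates, 44.0 CPM in mild replicate 2 and 34.0 and 51.4 CPM in the severe replicates. The other 3 libraries had fewer than 20 endothelial cells. The mean of the endothelial cells was 56.2 ± 31.1 CPM (SD, n = 5), and an unnamed cluster of 577 cells held 56.8 ± 62.3 CPM (n = 4). Endothelial cells exceeded microglia in 5 of 5 libraries, by 1.12 in log2(CPM + 1) (SD 0.22). Microglia held 25.6 ± 11.7 CPM (SD, n = 8), infiltrating macrophages 24.1 ± 8.02 CPM and fibroblasts 20.5 ± 15.6 CPM, and these did not differ beyond their spread. The oligodendrocyte precursors were low, at 3.25 ± 2.40 CPM.

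Tgfbi was found in infiltrating macrophages, fibroblasts, part of the dendritic cells and the mixed astrocyte cluster, and was scarce in microglia. In infiltrating macrophages its level was 481 and 76.4 CPM in the sham replicates, 213 and 118 CPM in the mild, 163 and 244 CPM in the moderate, and 102 and 48.4 CPM in the severe replicates. In microglia it was 3.99 and 1.26 CPM in sham, 11.3 and 3.56 CPM in mild, 11.3 and 10.4 CPM in moderate, and 25.6 and 3.71 CPM in severe replicates. Each library's microglia lay below its infiltrating macrophages. Fibroblasts held 139 ± 81.5 CPM (SD, n = 8) and could not be ordered against infiltrating macrophages, being higher in 4 of 8 libraries. Dendritic cells exceeded oligodendrocyte precursors in 6 of 6 libraries, and these exceeded oligodendrocytes in 7 of 8. The dendritic clusters numbered 17 and 20 held 95.7 and 2.17 CPM of Tgfbi over all libraries together. Within the infiltrating macrophages the cluster numbered 7, led by Cxcl1, Ftl1 and Dusp2, held 62.4 CPM over all libraries together, beside 181, 187 and 242 CPM in the clusters numbered 1, 3 and 18. That cluster held 97.6% and 98.1% of the infiltrating macrophages of the severe replicates.

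The share of UMIs that each cell type contributed depended on its number of cells as well as on the level. Microglia were 21.4% of the cells and infiltrating macrophages 26.1%, and together they held most of Tgfb1 (48.2% and 40.4% of 121002 UMIs), Tgfbr1 (40.9% and 51.1% of 34945) and Tgfbr2 (34.8% and 42.2% of 10572). Infiltrating macrophages held 73.7% of the 36477 UMIs of Tgfbi, fibroblasts 14.1% and microglia 3.06%. Fibroblasts were 3.96% of the cells and held 70.5% of the 5206 UMIs of Tgfb2 and 50.1% of the 2082 UMIs of Tgfb3. Oligodendrocytes held another 22.5% of Tgfb3 and their precursors 14.2%. The shares moved with the cells in a library. Microglia gave 94.9% of Tgfb1 in sham replicate 2 and 13.8% in severe replicate 1, and fibroblasts gave 95.0% of Tgfb2 in severe replicate 1 and 2.35% in sham replicate 2.

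**Figure D2:**
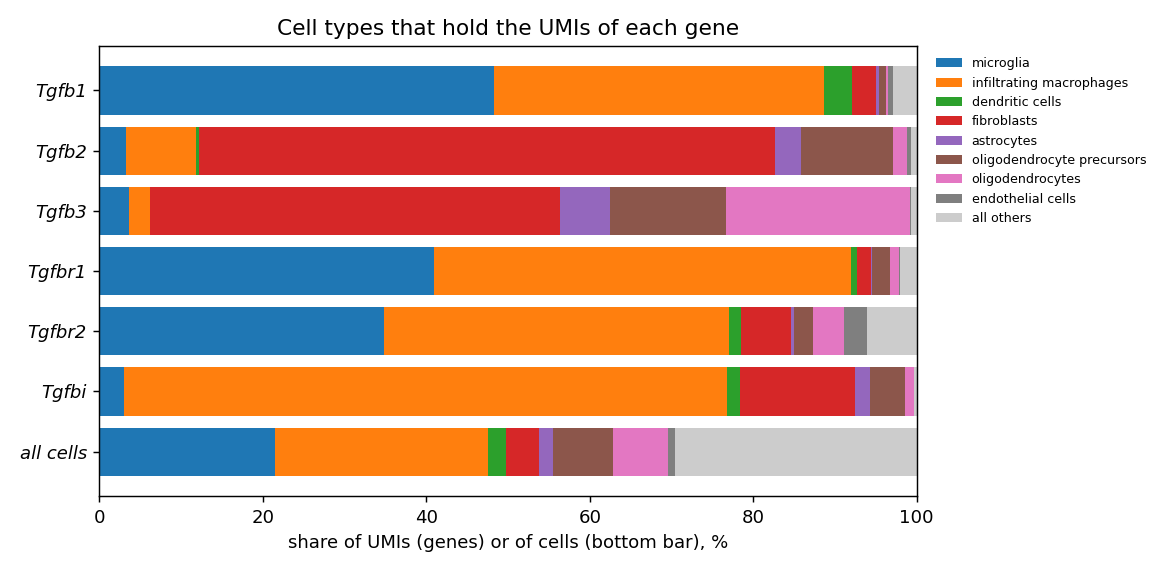
Share of the UMIs of each gene, in percent over all 8 libraries, that each cell type held, with the share of all cells in the bottom bar. Fibroblasts, 3.96% of cells, hold 70.5% of Tgfb2 and 50.1% of Tgfb3, and the macrophage and microglia colours fill most of the bars of Tgfb1, Tgfbr1 and Tgfbr2.

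Differences between cell types were tested within libraries, where both types share one preparation, by exact sign-flip permutation tests (two-sided) of log2(CPM + 1), adjusted over 18 tests. With 8 libraries the smallest p is 0.0078 and the smallest adjusted p reached was 0.0176. Microglia held more Tgfb1 than infiltrating macrophages in 8 of 8 libraries, by 0.42 (SD 0.28, exact permutation test, adjusted p = 0.0176), and less Tgfbi in 8 of 8, with a difference of -4.25 (SD 1.35, exact permutation test, adjusted p = 0.0176). Both were compared over whole clusters of cells whose makeup differed between groups. Over all libraries together Tgfb1 was 392, 389, 340 and 342 CPM in the microglia clusters numbered 0, 8, 10 and 12. The infiltrating macrophage cluster numbered 3 held 355 CPM, above microglia clusters 10 and 12. Infiltrating clusters 1, 7 and 18 held 210, 259 and 316 CPM. The Tgfb1 difference thus does not hold for every pair of clusters, a description with no test. For Tgfbr1 the difference was 0.040 (SD 1.04, exact permutation test, adjusted p = 0.984) and for Tgfbr2 it was 0.044 (SD 0.31, exact permutation test, adjusted p = 0.761), so that the receptors showed no difference that these libraries could resolve.

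Fibroblasts were set against macrophages/microglia, the microglia and infiltrating macrophages together. They held more Tgfb2 in 8 of 8 libraries, by 4.65 (SD 1.38, exact permutation test, adjusted p = 0.0176), and more Tgfb3 in 8 of 8, by 4.29 (SD 0.76, exact permutation test, adjusted p = 0.0176). They held less Tgfb1, with a difference of -1.21 (SD 0.44), and less Tgfbr1, with a difference of -2.10 (SD 0.40), in every library (exact permutation tests, adjusted p = 0.0176 for each). Tgfb2 and Tgfb3 thus lay on one side of this comparison, and Tgfb1 and the type I receptor Tgfbr1 on the other. Tgfbi was 0.86 higher in fibroblasts (SD 1.58, higher in 6 of 8 libraries, exact permutation test, adjusted p = 0.206), within its spread, and Tgfbr2 differed by -0.46 (SD 0.56, exact permutation test, adjusted p = 0.105). The fibroblasts of sham replicate 2 were 26 cells with 2 UMIs of Tgfb2 and 1 of Tgfb3. Their 6 pericyte markers summed to 14812 CPM and their 9 fibroblast markers to 11840 CPM, so their name is unsure. With at least 100 cells per library and type, which leaves that library out, 4 genes still passed.

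Within the oligodendrocyte lineage the precursors held more Tgfb2 than the oligodendrocytes in 8 of 8 libraries, by 1.97 (SD 0.89, exact permutation test, adjusted p = 0.0176). They held less Tgfbr2 in 8 of 8, with a difference of -1.47 (SD 1.19, exact permutation test, adjusted p = 0.0176). Some of these values rest on few UMIs. The precursors gave 0 and 1 UMIs of Tgfbr2 in the sham replicates and 1 in severe replicate 1. In sham replicate 2 the oligodendrocytes gave 3, so the order in that library is not shown. Of Tgfb2 the oligodendrocytes gave 2 UMIs in sham replicate 2 and 0 in severe replicate 1. Tgfbi was 0.81 higher in the precursors, in 7 of 8 libraries (SD 0.56, exact permutation test, adjusted p = 0.0312). Neither Tgfb1, with 1.008 (SD 1.56), nor Tgfb3, with -0.61 (SD 1.25), nor Tgfbr1, with 0.35 (SD 0.52), passed (exact permutation tests, adjusted p = 0.141, 0.229 and 0.141).

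**Figure D3:**
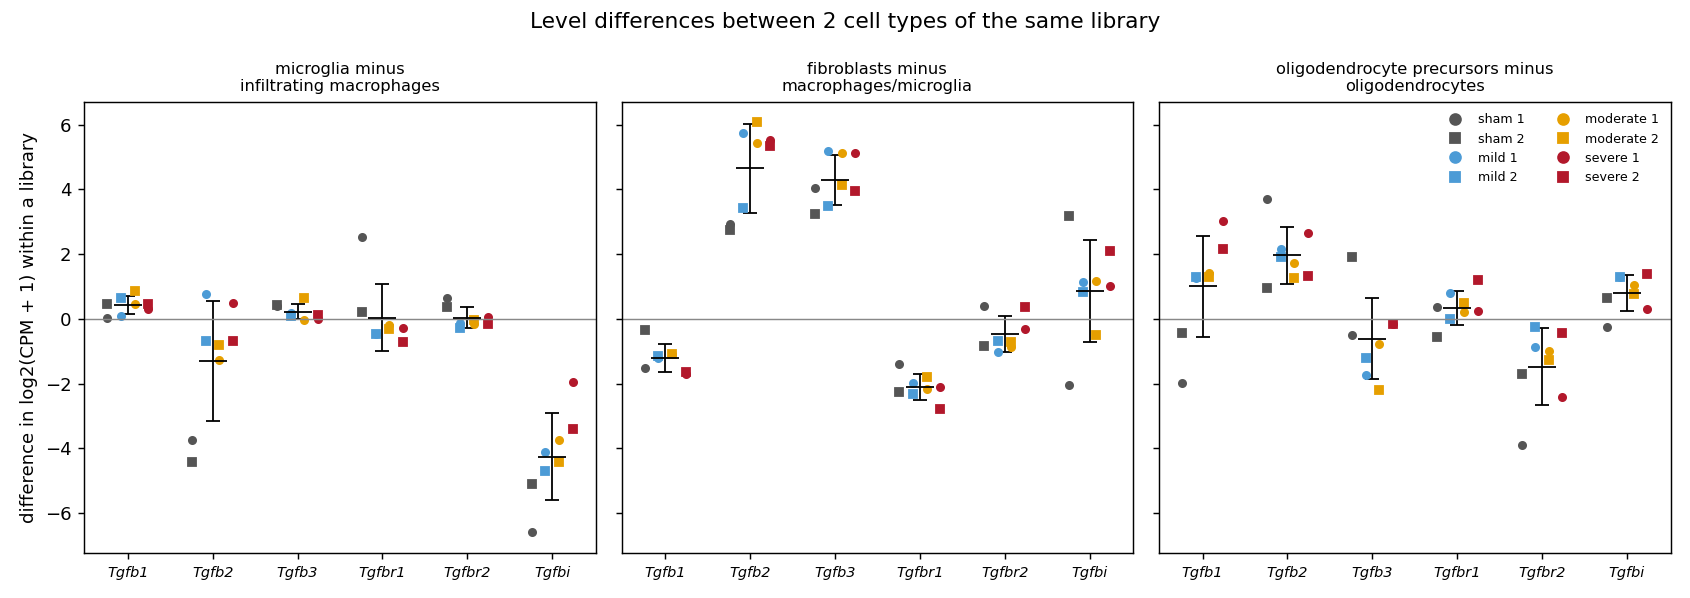
Difference in log2(CPM + 1) between 2 cell types of the same library for each gene, with 1 point per library and the mean ± SD in black. All 8 points lie below 0 for Tgfbi in microglia against infiltrating macrophages (mean -4.25) and above 0 for Tgfb2 and Tgfb3 in fibroblasts against macrophages/microglia (means 4.65 and 4.29).

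To ask whether the genes moved with injury, the UMIs of each type were summed per library and the groups compared by edgeR's quasi-likelihood test, with Benjamini-Hochberg adjustment over all genes tested and a threshold of 0.05. Fold changes are relative to TMM scaling. Scaling by library size alone moved the median of all genes by -0.48 to -0.25 (log2) in the severe contrasts and by -0.09 to 0.16 in the others. Over the 5 separate cell types 9 of 116 tests of the genes passed, beside 3.52% of the tests of all genes, and 13 did with DESeq2. In the mild group DESeq2 called 598 of all genes up and 957 down in infiltrating macrophages (edgeR 225 and 309). In microglia of that group it called 559 and 785 (edgeR 213 and 286), and in fibroblasts 103 and 133 (edgeR 37 and 10). Oligodendrocytes of the mild group, with 248 and 281 (edgeR 299 and 400), were the only case with fewer calls by DESeq2. In all other types and contrasts DESeq2 called more of all genes than edgeR. The 13 calls are therefore not to be set beside the 3.52% of edgeR. Of the 9 edgeR calls, 3 lay in the mild, 4 in the moderate and 2 in the severe contrast with sham. They came from infiltrating macrophages, oligodendrocyte precursors and oligodendrocytes.

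In infiltrating macrophages Tgfb2 fell in the mild and severe groups. Its level went from 12.3 and 42.3 CPM in the sham replicates to 0.877 and 1.80 CPM in the mild, 4.26 and 2.37 CPM in the moderate, and 1.61 and 1.53 CPM in the severe replicates. All 6 injured libraries lay below both sham libraries. The log2 fold change was -4.18 in the mild group (SE 0.70, adjusted p = 0.0245) and -3.60 in the severe group (SE 0.69, adjusted p = 0.0375), while the moderate group, at -2.88 (SE 0.65, adjusted p = 0.0896), did not pass. This was 1 of 5 genes tested in the mild group, where 4.42% of all genes were called, and 1 of 5 in the severe group, where 2.12% were. In the moderate group 0 of 12095 genes were called (0%), with 2098 at an unadjusted p under 0.05. The sham values rest on few cells, with 29 UMIs in 12 of 244 cells in replicate 1 and 36 UMIs in 10 of 91 cells in replicate 2, and a single cell held 12 of the latter. Leaving out either mild library ended the mild call (adjusted p = 0.182 without replicate 1 and 0.138 without replicate 2), and the severe call ended without severe replicate 1 (adjusted p = 0.143), severe replicate 2 (0.185) or mild replicate 1 (0.0511), with log2 fold changes between -4.83 and -3.55.

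Markers of border macrophages, the resident cells of meninges and vessels, were likewise higher in both sham libraries than in any injured library. The summed level of their 7 markers found, of 8 listed, was 4629 and 2545 CPM in the infiltrating macrophages of the sham replicates and 981 to 1710 CPM in the injured libraries, with none of the 7 at 0. The summed level of the 9 infiltrating markers found, of 12 listed, was 6686 and 5506 CPM in sham and 8621 to 15792 CPM in injured libraries. Sham replicate 1 held more of the border markers than sham replicate 2 but less Tgfb2. The part of these markers in the Tgfb2 values was not tested. Each cell was also assigned singly by its markers, and setting border and infiltrating macrophages side by side in this way was chosen after seeing the data. By this assignment 2176 cells were gated as border macrophages and 15594 as infiltrating macrophages. Of the border-gated cells 1208 lay in the infiltrating macrophage clusters and 865 in the microglia clusters. Tgfb2 in the border-gated cells was 53.8 and 54.9 CPM in sham, 14.97 and 9.50 CPM in mild, 12.1 and 9.58 CPM in moderate, and 9.33 and 8.41 CPM in severe replicates, above the infiltrating-gated cells in 8 of 8 libraries. The infiltrating-gated cells held 7.90 and 6.70 CPM in sham and 0.669 to 10.7 CPM in injured libraries, where the groups overlapped. The sham values rest on 14 UMIs in 174 cells and 4 UMIs in 56 cells. The lowest injured value rests on 8 UMIs in 811 cells of severe replicate 1. Of all infiltrating-gated cells 11703 lay in the infiltrating macrophage clusters, 1617 in microglia, 913 in oligodendrocyte precursors and 169 in fibroblasts. In moderate replicate 1 they held 421 UMIs of Tgfb2, while the infiltrating macrophage clusters held 158. The overlap thus covers a mixed set of cells and is not shown for infiltrating macrophages alone. With this assignment, and with a clustering resolution of 0.8 or a mitochondrial limit of 20%, no gene of the family was called in infiltrating macrophages. The log2 fold change of Tgfb2 was then -0.81, -1.97 and -2.72 in the mild group and -2.04, -1.99 and -1.28 in the severe group, in the order of these 3 settings.

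**Figure D4:**
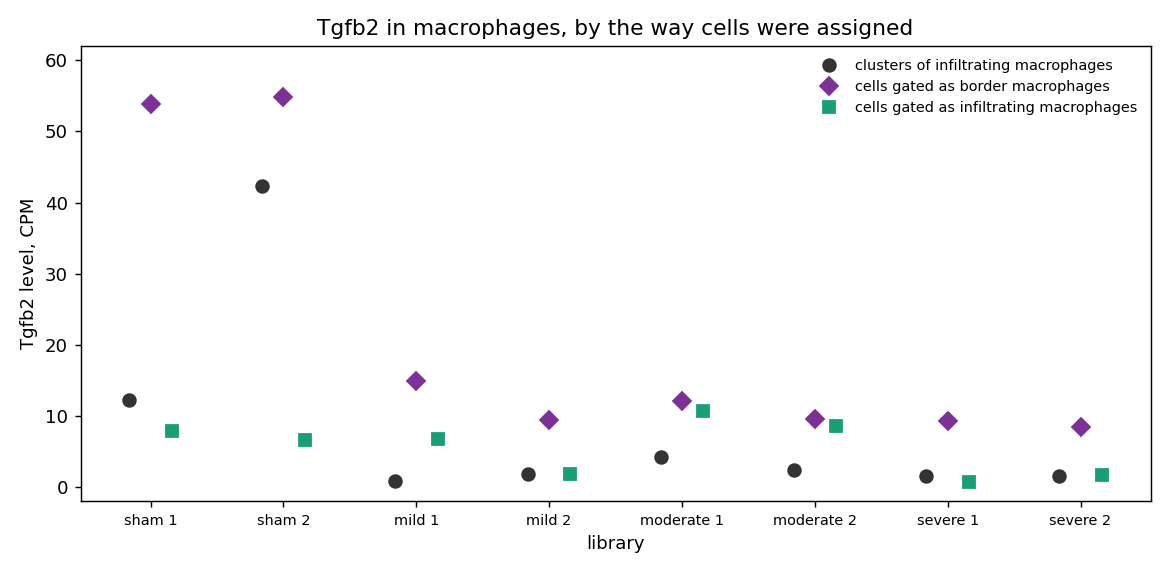
Level of Tgfb2 in CPM in each library, for the clusters named infiltrating macrophages and for cells assigned singly by markers as border or as infiltrating macrophages. The border-gated cells reach 53.8 and 54.9 CPM in the sham libraries and 8.41 to 14.97 CPM in the injured ones. The infiltrating-gated cells of sham and injured libraries overlap, and both gates include cells from other clusters.

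The other genes in infiltrating macrophages did not pass. Tgfb1 had a log2 fold change of 0.75 in the mild group (SE 0.29, adjusted p = 0.149), and Tgfbi of -1.46 in the severe group (SE 0.67, adjusted p = 0.244). Tgfb3 was too low to be tested, with 0 UMIs in both sham replicates, which allows up to 1.27 and 3.53 CPM. For these genes the comparison turned on which sham library was used. Without sham replicate 2, Tgfbr1 passed in all 3 injured groups, with 3.07, 3.63 and 3.21 (adjusted p = 0.0052, 0.0038 and 0.0046), Tgfb1 passed in the mild group with 1.09 (adjusted p = 0.0459), and Tgfbi in the severe group with -2.21 (adjusted p = 0.0169). Without sham replicate 1 these 5 did not pass, Tgfb2 passed in all 3 groups, with -4.96, -3.67 and -4.38, and the Tgfbi difference of the severe group was 0.31. The lone sham library is assumed in these fits to vary like the other groups. Here and below, the share of all genes that passed in such fits is not given. A pass in them is therefore not read as a result about these genes.

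In microglia 0 of 24 tests passed with edgeR, where 4.12% of all genes were called in the mild, 0.694% in the moderate and 2.01% in the severe group against sham. At an unadjusted p under 0.05 there were 3, beside 19.1% to 27.5% of all genes, depending on the contrast. DESeq2 called 1, Tgfbi in the severe group. The edgeR log2 fold change of Tgfbi there was 2.94 (SE 0.93, adjusted p = 0.128), and the 2 severe libraries were far apart. Tgfb1 had 0.69 in the mild group (SE 0.38, adjusted p = 0.269), with 195 and 359 CPM in the sham replicates, 445 and 466 CPM in the mild, 293 and 383 CPM in the moderate, and 378 and 337 CPM in the severe replicates. Mild libraries were the highest, and sham replicate 1 the lowest. Without sham replicate 2, Tgfb1 passed in the mild group at 1.46 and in the severe group at 1.41 (adjusted p = 0.0133 and 0.0152), and Tgfbr2 in the mild group at -1.13 (adjusted p = 0.0475). Without sham replicate 1, Tgfbr1 passed after mild (-1.58) and after severe injury (-1.48, adjusted p = 0.0121 and 0.0246), beside -1.01 in the mild group with all libraries (SE 0.46, adjusted p = 0.188).

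The microglia of the groups came from different clusters. The cluster numbered 10 held 77.7% and 79.98% of the microglia of the sham replicates, and the cluster numbered 12 held 97.8% and 96.3% of those of the severe replicates, with 164 and 48.0 CPM of Tgfbr1 over all libraries. The summed level of the 10 microglia markers was 1125 to 2035 CPM in sham and 684 to 886 CPM in injured libraries, and that of the 9 infiltrating markers 1058 to 1292 and 1660 to 6099 CPM, with none of either list at 0. Their part in these differences was not tested. In macrophages/microglia together 0 of 24 tests passed, and DESeq2 called 1, Tgfb2 in the mild group. An unadjusted p under 0.05 was reached by 1 test, beside 20.3% to 29.2% of all genes, depending on the contrast. Of all genes, 5.9% were called there in the mild, 1.43% in the moderate and 7.07% in the severe group. Without sham replicate 1, Tgfbi passed there in all 3 groups, with 4.404, 4.77 and 4.16, and Tgfbr1 in the mild group at -1.19. With sham replicate 2 left out, Tgfb1 passed after mild (1.37) and severe (1.30) injury, and Tgfbr1 after moderate (1.63) and severe (1.24) injury. In the severe group Tgfbr1 was thus 1.24 against sham replicate 1 alone and -0.91 against sham replicate 2 alone.

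In oligodendrocyte precursors, the dividing glia that give rise to myelinating cells, Tgfb1 rose in the moderate and severe groups and Tgfbi in the mild and moderate groups. Tgfb1 was 0 and 9.59 CPM in the sham replicates, 21.1 and 23.7 CPM in the mild, 24.002 and 26.5 CPM in the moderate, and 24.1 and 17.5 CPM in the severe replicates. All 6 injured libraries lay above both sham libraries, which had 0 UMIs of 602078 (up to 4.98 CPM) and 7 UMIs. The log2 fold change was 2.30 in the moderate group (SE 0.60, adjusted p = 0.0362) and 2.28 in the severe group (SE 0.62, adjusted p = 0.0375), and 2.13 in the mild group did not pass (SE 0.61, adjusted p = 0.0558). Without sham replicate 1 the 3 values were 1.28, 1.41 and 1.41, and none of them passed (adjusted p = 0.17, 0.113 and 0.13). All 3 passed without sham replicate 2, against a single sham library with 0 UMIs. The moderate call also ended without moderate replicate 1 (adjusted p = 0.0742), moderate replicate 2 (0.111) or mild replicate 2 (0.0608). The severe call ended without severe replicate 1 (adjusted p = 0.0719), severe replicate 2 (0.145), mild replicate 1 (0.0529) or mild replicate 2 (0.0651). With doublets kept neither passed (adjusted p = 0.0869 and 0.234).

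Tgfbi in these precursors was 3.32 and 10.96 CPM in the sham replicates, 29.2 and 25.8 CPM in the mild, 33.0 and 48.2 CPM in the moderate, and 10.6 and 11.5 CPM in the severe replicates. Mild and moderate libraries lay above both sham libraries, and severe replicate 1 lay between the sham values. The log2 fold change was 1.90 in the mild group (SE 0.47, adjusted p = 0.0351) and 2.46 in the moderate group (SE 0.45, adjusted p = 0.0086). The severe group had 0.94 (SE 0.51, adjusted p = 0.237), and severe against mild had -0.97 (SE 0.32, adjusted p = 0.105). Without sham replicate 1 the moderate difference of 1.90 passed (adjusted p = 0.0349) and the mild one of 1.37 did not (adjusted p = 0.141). Without sham replicate 2 all 3 injured groups passed, with 3.25, 3.78 and 2.29. Severe against mild passed when either sham library was left out, at -0.96 in both fits. The mild call also ended without mild replicate 1 (adjusted p = 0.176) or mild replicate 2 (0.0886), and the moderate call without moderate replicate 2 (0.0559). With doublets kept the mild value was 0.82 and did not pass (adjusted p = 0.183). Tgfb2 passed in the severe group when sham replicate 2 was left out, at -1.60 (adjusted p = 0.0343).

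These calls were 1 of 6 genes in the mild group, 2 of 6 in the moderate and 1 of 6 in the severe group, beside 6.79%, 8.28% and 10.8% of all genes. The median log2 fold change of the 6 genes was 1.39 in the mild, 2.06 in the moderate and 1.11 in the severe group. Over all genes tested it was -0.02, 0.02 and -0.07. The sham replicates held 0 and 7 UMIs of Tgfb1, 1 and 2 of Tgfb3, 0 and 1 of Tgfbr2, and 2 and 8 of Tgfbi. Genes this low in sham can enter the test through the injured libraries, so the medians do not show a rise of the family. The summed level of the 12 general macrophage and microglia markers was 585 and 1030.0 CPM in the sham replicates and 72.4 to 949 CPM in the injured libraries, with none of the 12 at 0 in every library. The 9 fibroblast markers summed to 4559 and 505 CPM in sham and to 45.0 to 591 CPM in injured libraries, and the 10 markers of oligodendrocyte precursors found to 5362 to 6760 CPM in sham and 2065 to 3701 CPM in injured libraries. The infiltrating macrophage list, which includes Vcan and Fn1, summed to 1264 to 1423 CPM in sham and 773 to 2041 CPM in injured libraries, and F10, Ms4a7 and Fabp4 of that list were at 0 in both sham libraries. When the 4083 cells of this cluster were assigned singly by markers, 2107 were precursors and 721 stayed unassigned. Another 913 were infiltrating macrophages by that list and 157 general macrophages or microglia. With cells assigned singly, 1 test of the 6 genes passed in precursors, beside 4 with the clusters. The part of these markers and cells in the Tgfb1 and Tgfbi values was not tested.

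In oligodendrocytes, the myelinating cells, Tgfb3 rose in the mild and moderate groups. Its level was 2.79 and 0 CPM in the sham replicates, 15.4 and 10.99 CPM in the mild, 14.3 and 39.0 CPM in the moderate, and 5.17 and 4.78 CPM in the severe replicates. Mild and moderate libraries stood above both sham values, and the severe libraries were lower than these. The log2 fold change was 2.40 in the mild group (SE 0.57, adjusted p = 0.0351), 3.24 in the moderate group (SE 0.59, adjusted p = 0.0279) and 1.21 in the severe group (SE 0.66, adjusted p = 0.30). The 39 oligodendrocytes of sham replicate 2 gave 0 UMIs of 447671, which allows up to 6.70 CPM, above the level of sham replicate 1 and of both severe libraries, so an order of severe against sham is not shown. Without sham replicate 2 the mild and moderate differences were 2.29 and 3.11 and passed (adjusted p = 0.018 and 0.0122), and without sham replicate 1 neither passed (adjusted p = 0.189 and 0.126). The mild call also ended without mild replicate 1 (adjusted p = 0.244) or mild replicate 2 (0.117), and the moderate call without moderate replicate 2 (0.227), mild replicate 1 (0.0577) or mild replicate 2 (0.0642).

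Tgfbi in oligodendrocytes was 4.14 and 6.70 CPM in the sham replicates, 11.3 and 9.98 CPM in the mild, 15.5 and 27.9 CPM in the moderate, and 8.28 and 3.82 CPM in the severe replicates. It passed in the moderate group with a log2 fold change of 2.13 (SE 0.49, adjusted p = 0.0461), and without sham replicate 1 the value was 1.48 and did not pass (adjusted p = 0.36). It did not pass either without either mild library (adjusted p = 0.107 and 0.116) or either moderate library (0.0689 and 0.328). Tgfb1 passed in the mild group when sham replicate 2 was left out, at 1.59 (adjusted p = 0.0262). The calls in oligodendrocytes were 1 of 6 genes in the mild group, 2 of 6 in the moderate and 0 of 6 in the severe group, where 1 gene had an unadjusted p under 0.05 and DESeq2 called 0. Of all genes, 7.21%, 2.94% and 1.02% were called, and 22.1% had an unadjusted p under 0.05 in the severe group. Markers of infiltrating macrophages in these cells summed to 133 and 174 CPM in the sham replicates and 107 to 936 CPM in the injured libraries, and the 12 general macrophage and microglia markers to 494 and 1959 CPM in sham and 106 to 1025 CPM in injured libraries, with no marker of either list at 0 in every library. Their part in the Tgfbi value was not tested.

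**Figure D5:**
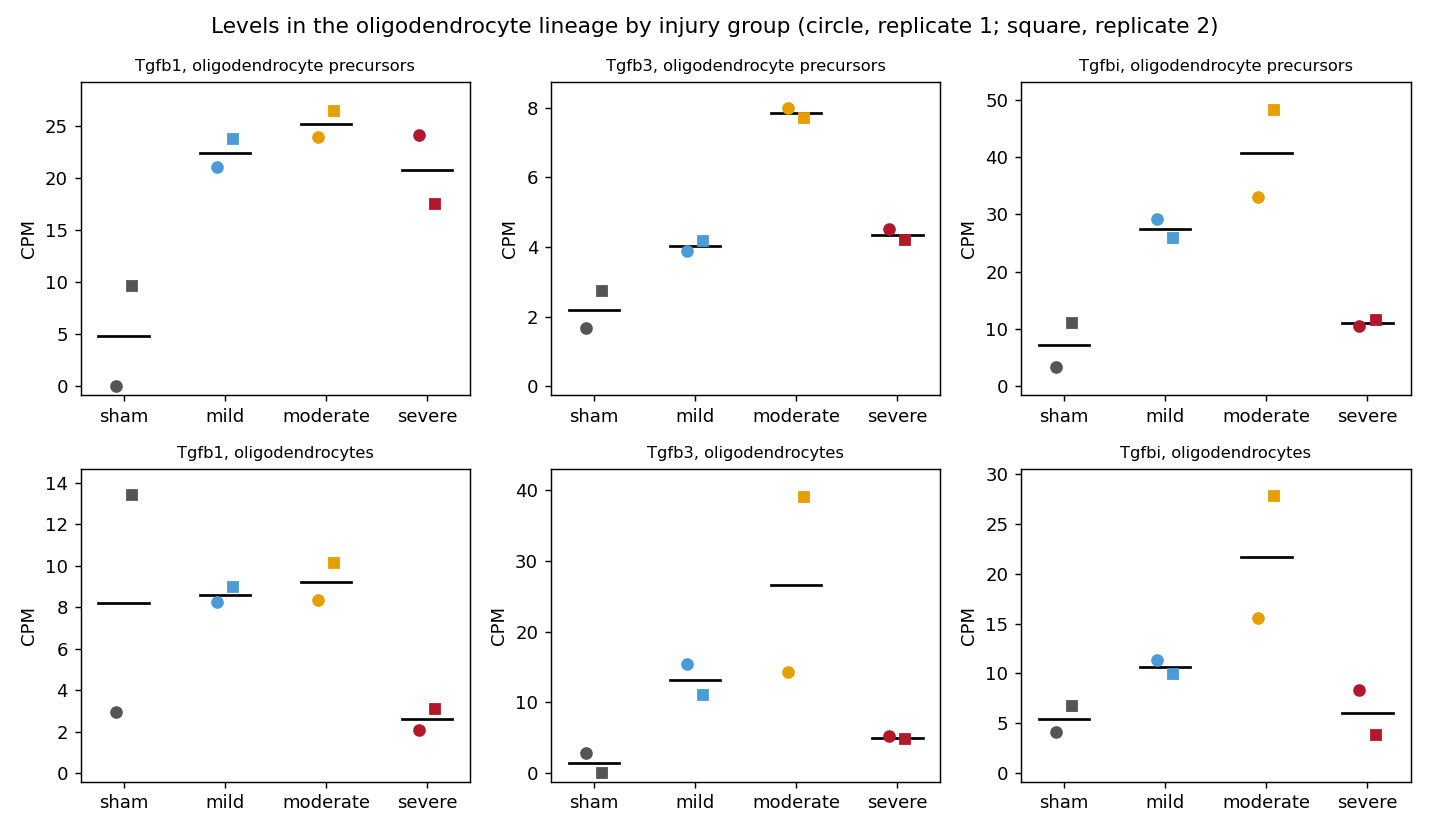
Level of Tgfb1, Tgfb3 and Tgfbi in CPM in oligodendrocyte precursors (top) and oligodendrocytes (bottom) by injury group, with 1 point per library and a bar at the mean of 2 libraries. Tgfb1 in precursors is 17.5 to 26.5 CPM in injured libraries and 0 and 9.59 CPM in sham, and the severe libraries lie below the mild and moderate ones for Tgfbi in precursors and Tgfb3 in oligodendrocytes.

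In fibroblasts 0 of 24 tests passed with edgeR, 7 had an unadjusted p under 0.05, and DESeq2 called 1, Tgfbi in the severe group. Among all genes 15.9% to 21.0% had such an unadjusted p, depending on the contrast. Of all genes, 0.42% were called in the mild, 1.59% in the moderate and 1.54% in the severe group. Tgfbi was 48.6 and 46.6 CPM in the sham replicates, 281 and 97.8 CPM in the mild, 212 and 107 CPM in the moderate, and 179 and 137 CPM in the severe replicates. All injured libraries lay above both sham libraries, of which replicate 2 gave only 4 UMIs. The log2 fold changes were 1.98, 1.66 and 2.04 (SE 0.59, 0.58 and 0.59, adjusted p = 0.123, 0.163 and 0.108). Tgfb2 had 1.97 in the moderate group (SE 0.72, adjusted p = 0.174). Tgfbr2 was 56.5 and 11.7 CPM in the sham replicates, 7.78 and 15.1 CPM in the mild, 16.7 and 19.3 CPM in the moderate, and 10.7 and 26.2 CPM in the severe replicates, with log2 fold changes of -2.21, -1.55 and -1.10 (SE 0.63, 0.59 and 0.57, adjusted p = 0.114, 0.19 and 0.304). Sham replicate 1 held the highest of these values, and that of sham replicate 2 rests on 1 UMI. The fibroblasts of the libraries also came from their 2 clusters in different shares. Cluster 11, the one with more Tgfb2, held 58.8% and 0% of the fibroblasts of the sham replicates, 68.3% and 15.7% of the mild, 57.2% and 22.8% of the moderate, and 80.4% and 71.1% of the severe replicates. The sham fibroblasts were not like the others in their markers. The 26 cells of sham replicate 2 held 14812 CPM of the 6 pericyte markers, beside 29.8 to 386 CPM in the other libraries, and the 420 cells of sham replicate 1 held 1962 CPM of border macrophage markers, beside 11.7 to 66.1 CPM in the others. The 9 fibroblast markers of these 26 cells summed to less than their pericyte markers, 11840 CPM. Cd163 of the border list was at 0 in every library. Their part in these differences was not tested. Without sham replicate 2, Tgfb1 passed in the mild group with 1.32 (adjusted p = 0.036).

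Drop heights of 50 mm and 12.5 mm were compared directly. Of 29 tests in the 5 cell types 0 passed with edgeR and 0 with DESeq2. An unadjusted p under 0.05 with edgeR was reached by 2, Tgfbi in oligodendrocyte precursors and Tgfb1 in oligodendrocytes. Among all genes 15.9% to 22.6% had such an unadjusted p, depending on the cell type. Of all genes, 2.92% were called in this contrast in microglia, 4.11% in infiltrating macrophages, 4.78% in oligodendrocyte precursors, 3.23% in oligodendrocytes, 0.733% in fibroblasts and 2.28% in macrophages/microglia together.

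Another 45 genes of the pathway were read with the same fits, namely genes of latency and activation, co-receptors, signal carriers, inhibitors and known response genes. Over the 5 cell types 23 tests of 15 genes passed, 18 of them upwards and 5 downwards, with 5 and 0 in microglia, 5 and 0 in infiltrating macrophages, 5 and 4 in oligodendrocyte precursors, 3 and 1 in oligodendrocytes, and 0 of 41 genes in fibroblasts in any contrast. These 23 were 3.16% of the 728 tests of these genes, near the 3.52% called among the tests of all genes in the same types and contrasts. The calls, with those in macrophages/microglia together, were refitted with each library left out in turn. In these refits 132 results no longer passed and 108 still did. The groups also differed in the clusters and markers of their cells, as given above, and the part of this in the pathway genes was not tested. Furin, the protease that cuts the TGF-beta precursor, rose in the mild and severe groups in infiltrating macrophages. It was 45.0 and 45.9 CPM in the sham replicates and 94.5 to 163 CPM in the injured libraries. The log2 fold change was 1.62 in the mild group (SE 0.29, adjusted p = 0.0282) and 1.77 in the severe group (SE 0.29, adjusted p = 0.0232). Bhlhe40, a transcription factor gene that TGF-beta can induce, rose in the severe group by 1.76 in infiltrating macrophages (adjusted p = 0.0417) and by 1.96 in microglia (adjusted p = 0.047). It was also higher in the severe than in the mild group, by 1.96 and 2.62 (adjusted p = 0.0116 and 0.0118).

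Of the inhibitors, Skil in infiltrating macrophages was 1.49 higher in the severe than in the mild group (adjusted p = 0.0412), and Tgif1, a Smad corepressor, was 2.66 higher in microglia (adjusted p = 0.0485). The response gene Postn, which encodes periostin, was at 0 UMIs in both sham libraries of microglia and was at least 5.55-fold higher in the mild and at least 22.6-fold higher in the moderate group, with a floor of 3 UMIs over the sham group. The severe group, at 0.109 CPM, lay under that floor of 0.125 CPM, so no fold is given for it. Its level in microglia reached only 3.07 CPM, and fibroblasts held 379 ± 353 CPM of it (SD, n = 8).

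In oligodendrocyte precursors Tagln, an actin-binding response gene, rose in all 3 injured groups, from 1.66 and 2.74 CPM in the sham replicates to between 11.6 and 23.6 CPM, with log2 fold changes of 2.71, 3.27 and 3.34 (adjusted p = 0.0389, 0.012 and 0.0114). With doublets kept the values were -0.30, 0.19 and 0.23, and none passed. Tgfbr3, the co-receptor betaglycan, fell by 2.55 on the log2 scale in the severe group (adjusted p = 0.017), and Smad4, the shared partner of the receptor-activated Smads, was lower after mild injury, with -1.87 (adjusted p = 0.0216). Mmp14, a membrane protease gene, was at 0 UMIs in both sham libraries and at least 3.26-fold higher in the mild group (adjusted p = 0.0473), by the same floor. In oligodendrocytes Itgb8, an integrin subunit that activates latent TGF-beta, was 62.1 and 44.7 CPM in sham and 9.12 to 28.9 CPM in injured libraries, and fell in the mild group by 2.22 on the log2 scale (SE 0.32, adjusted p = 0.01). Pmepa1, a feedback inhibitor, rose from 74.9 and 71.5 CPM to 203 and 207 CPM in the mild and 232 and 268 CPM in the moderate replicates, with 1.49 and 1.60 (adjusted p = 0.0364 and 0.0449). Ltbp3, which anchors the latent complex, rose in the moderate group by 1.99 (adjusted p = 0.0464). These pathway genes were highest in fibroblasts for 13 of 42 with a mean of at least 1 CPM, in endothelial cells for 8 and in oligodendrocyte precursors for 5.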

How the data were processed

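The deposited files hold raw UMI counts per gene and cell, made by the authors with Cell Ranger (5.0.1 in the file headers) on Rnor_6.0. The 6 genes, the marker lists and the pathway lists were chosen with earlier results of these data known. Cells with over 10% mitochondrial UMIs, the 7.7% with the highest doublet score in each library, and cells beyond 2 SD of their library's mean UMIs or genes were removed. Clustering used Seurat 5.3.0 (4000 variable genes, without the 51 genes of the pathway; the first 15 components; resolution 0.4), and 160 of 171 listed markers were found (the others were not analysed here). Counts were summed per library and type, for at least 20 cells. Groups were compared with edgeR 4.0.16 (TMM, filterByExpr, all 4 groups in 1 fit) and DESeq2 1.42.0. The methods were tested on simulated data. For edgeR these were counts drawn from the microglia sums, with the same spread for all genes and sham libraries that differed only by sampling. The sham libraries of the data stood apart from each other, so this does not show how the fits perform on them. Total counts were 31482153 to 131045446 UMIs per library. Floors for a count of 0 are 3 UMIs and cover counting error only. Other pathway genes were named where they passed, up to 5 per cell type by size of change, and a few genes that the rules would name are not reported here.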

Additional observations from a re-analysis of the deposited data

Results flagged for a closer look

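In 5 comparisons both libraries of an injury group lay above both sham libraries in one cell type and below both in another. The difference between the cell types was not tested in any of them, and the last 2 rest on libraries with 0 UMIs of the gene. Those for Tgfb2 rest in part on the fibroblasts of sham replicate 2, which gave 2 UMIs of it in 26 cells. For Tgfb2, fibroblasts exceeded infiltrating macrophages in log2 fold change by 4.85 in the moderate group (1.97 and -2.88) and by 5.29 in the severe group (1.69 and -3.60). The same gene differed by 2.89 between fibroblasts and oligodendrocyte precursors in the severe group (1.69 and -1.20). For Tgfb3 in the severe group, oligodendrocyte precursors exceeded microglia by 1.93 (1.28 and -0.66) and oligodendrocytes exceeded microglia by 1.87 (1.21 and -0.66). The microglia of severe replicate 1 had 0 UMIs of Tgfb3, which allows up to 0.996 CPM, above the 0.307 and 0.339 CPM of the sham microglia. The oligodendrocytes of sham replicate 2 had 0 UMIs, which allows up to 6.70 CPM, above the 5.17 and 4.78 CPM of the severe ones, so the order of these libraries is not shown.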

How the results depend on the processing

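Beside the counts of tests of the 6 genes that passed (0 in macrophages/microglia, 0 in microglia, 2 in infiltrating macrophages, 4 in oligodendrocyte precursors, 3 in oligodendrocytes and 0 in fibroblasts) and 30 for the other pathway genes, alternatives gave the following. DESeq2 called 1 in macrophages/microglia, 1 in microglia, 1 in fibroblasts and 75 of the pathway. No filter on low counts gave 4 in microglia, 4 in infiltrating macrophages, 5 in oligodendrocytes, 7 in fibroblasts and 146 of the pathway. Only the 2 groups compared gave 0 in infiltrating macrophages, 1 in oligodendrocyte precursors and 1 in oligodendrocytes. Doublets kept gave 1 in microglia and 1 in oligodendrocyte precursors. A mitochondrial limit of 20% and a resolution of 0.8 each gave 0 in infiltrating macrophages, and cells gated singly gave 0 there and 1 in oligodendrocyte precursors. The cause was not tested. Apart from DESeq2, the share of all genes that passed under these alternatives, or with 1 library left out, is not given. The counts are therefore not read as results about the 6 genes or the pathway.

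A replicate block gave 1 in oligodendrocytes, 1 in fibroblasts and 16 of the pathway. Libraries with the same number correlated between -0.24 and 0.26 in their deviations from the group means, so the numbers were not taken as a pairing.

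Leaving out 1 library gave 0 to 4 in macrophages/microglia, 0 to 3 in microglia, 0 to 7 in infiltrating macrophages, 1 to 8 in oligodendrocyte precursors, 0 to 4 in oligodendrocytes, 0 to 1 in fibroblasts and 7 to 99 of the pathway. Within libraries it gave 2 to 2 genes for microglia against infiltrating macrophages, 4 to 4 for fibroblasts against macrophages/microglia and 2 to 3 for precursors against oligodendrocytes, where a minimum of 100 cells left too few libraries and gave 0.

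Signs were followed for the differences within libraries, the tests that passed and some other chosen tests, so the list below is not complete. In macrophages/microglia, outside that list, Tgfbr1 and Tgfbi in the severe group were -0.23 and -0.22 with all libraries. Tgfbr1 turned positive without sham replicate 2, and Tgfbi without sham replicate 1. For microglia minus infiltrating macrophages, Tgfb3 was -0.60 with cells gated singly, Tgfbr1 was -0.0039 with a pseudocount of 10 CPM and -0.32 to 0.15 when 1 library was left out (lowest without sham replicate 1), and Tgfbr2 was -0.0032 with at least 100 cells and -0.040 to 0.091 when 1 library was left out (lowest without sham replicate 1, and -0.0032 without sham replicate 2). Against sham, Tagln in precursors was -0.30 (mild, doublets kept), and Tgfb2 in infiltrating macrophages was 0.22 (moderate, gated singly, with cells of other clusters included). Tgfbi in microglia was -0.38 (severe, 20% limit) and -0.11 (severe, gated singly). Tgfbr1 in microglia was -1.58 to 0.021 (mild, without sham replicates 1 and 2). Tgfbi in infiltrating macrophages was -2.21 to 0.31 (severe, without sham replicates 2 and 1). For each gene, mean levels were recomputed only in the highest types among those compared between injury groups. The settings were doublets kept, the 20% limit, the resolution of 0.8 and cells gated singly. This recomputing was chosen after seeing the data, as were all alternatives for the pathway. The recomputed means moved by less than their SD. Means of dendritic cells, endothelial cells, astrocytes, T cells/NK cells and neutrophils were not recomputed.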

Other observations

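The genes whose levels ran most like each of the 6, by Pearson's r of log2(CPM + 1) over 71 pairs of library and cell type and 9628 genes, are given as a description. The pairs share libraries and depth and are not independent. Tgfb1 was closest to Fxyd5 (r = 0.91), Vasp (0.89) and Cyba (0.89), Tgfb2 to Sdc2 (0.84), Medag (0.84) and Hoxc8 (0.83), and Tgfb3 was close to Rgma (0.89) and Mxra8 (0.88). Tgfbr1 was closest to Tcirg1 (0.85), Tgfbr2 to Man1a1 (0.76), RGD1309362 (0.74) and Itsn2 (0.74), and Tgfbi to Slc41a2 (0.82), Gfpt2 (0.76) and Ap2a2 (0.74).

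Clusters of one name had different levels of these genes over all libraries together. Among the infiltrating macrophages Tgfb1 was 209.6 CPM in the cluster numbered 1, 355 CPM in cluster 3, 259 CPM in cluster 7 and 316 CPM in the cycling cluster 18. The 2 fibroblast clusters, 11 and 16, held 46.0 and 14.1 CPM of Tgfb3 and 216 and 86.6 CPM of Tgfbi. Within each of the 6 libraries with at least 20 cells of both fibroblast clusters, cluster 11 held more Tgfb3 (21.4 to 79.8 CPM beside 4.23 to 26.4 CPM) and more Tgfbi (55.0 to 367 CPM beside 42.1 to 114 CPM). These values are a description, with no test.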
